A study of Homo sapiens with 48 samples.

Results

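The 10 genes described here (ATF4, DDIT3, ATF3, TRIB3, CHAC1, ASNS, PSAT1, PHGDH, SESN2 and DDIT4) are the transcription factor ATF4 and 9 genes that it is known to induce under stress. They were taken by name from the 58870 genes counted, as a list chosen with earlier results of these data known. RNA was sequenced from 48 libraries of the uveal melanoma cell lines 92-1, MEL202 and MP41, all labelled wild type, in 16 groups of 3 biological replicates. Each line was treated for 4 h or 24 h with the vehicle DMSO or with FHT-1015, an inhibitor of both SMARCA4 and SMARCA2, the alternative ATPases of the BAF chromatin remodelling complex. A separate set of 92-1 libraries compared DMSO with IDE196, which inhibits protein kinase C, again at 4 h and 24 h. Each line with a drug and its own DMSO libraries at both times is called an experiment, which makes 4 experiments of 12 libraries. The labels used here give no dose and no clone or passage of the lines. The labels call the replicates biological. Every p-value rests on the spread between replicates within groups, estimated over all libraries fitted together and moderated across genes.

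ATF4 is the effector of the integrated stress response. When cells lack amino acids or fold proteins badly, kinases phosphorylate the initiation factor eIF2, general translation slows and the ATF4 message is translated more efficiently, so that ATF4 protein is set largely after transcription. ATF4 then binds composite C/EBP-ATF elements, often called CARE or amino acid response elements, and raises genes for amino acid synthesis and uptake, for redox balance and for its own restraint. In melanoma cells ATF4 is also known to repress the lineage factor MITF. RNA levels, measured here, report on the targets and on the ATF4 message but not on ATF4 protein.

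Promoter sequences of all 10 genes were taken from RefSeq on GRCh38.p14, as windows of 300 bases that run from 250 bases before a transcription start to 50 after it, 16 windows in all because some genes have several starts. The core of the CARE was searched as TGATGNAA on both strands. It occurred in the windows of 3 of the 10 genes, and in those of 4.46% of the 27305 genes of the table. By window these were 3 of the members' 16, beside 3.62% of all 35116 windows of that length. These 3 are shown, each with the match in capitals within 60 bases, because they are the members whose promoter window holds the core letters of an ATF4 site.
ATF3 (chr1:212565190-212565249, + strand): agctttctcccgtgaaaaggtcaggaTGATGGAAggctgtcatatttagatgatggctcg
CHAC1 (chr15:40953236-40953295, + strand): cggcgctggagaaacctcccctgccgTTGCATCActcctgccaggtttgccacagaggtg
ASNS (chr7:97872443-97872502, - strand): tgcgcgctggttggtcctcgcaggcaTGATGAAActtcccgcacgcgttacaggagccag
The matches began 191, 209 and 68 bases before the start of ATF3, CHAC1 and ASNS. In CHAC1 the letters lay on the opposite strand, and in ATF3 and ASNS they were in the window of the upstream of the gene's 2 starts. The plain cAMP response element TGACGTCA, searched in the same way, was in no member's window and in 1.85% of all windows. The absence of a match says only that the letters are not in these 300 bases.

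The libraries held 11394088 to 32317711 reads assigned to genes, and 17592 to 27150 genes with at least 1 read. The lowest number of genes was in replicate 2 of FHT-1015 in MEL202 at 4 h. Replicates of MEL202 and MP41 varied more than those of 92-1: the common biological coefficient of variation was 0.294 in MEL202, 0.217 in MP41, 0.117 in the FHT-1015 experiment of 92-1 and 0.112 in the IDE196 experiment. The melanocyte markers PMEL, MLANA, TYR, DCT, TYRP1, SOX10 and MITF summed to 7875 to 23045 CPM (read counts scaled to library size) in the DMSO libraries. Their sum was 2746 to 17825 CPM in the FHT-1015 libraries, where 7 of 7 passed as lower at 24 h in each line (edgeR), and 17033 to 20872 CPM with IDE196. Markers of fibroblasts, epithelium, leukocytes and endothelium summed to 2.73 to 44.0 CPM in DMSO and 3.44 to 38.2 CPM with a drug, with the T cell marker CD3E at 0 to 0.0614 CPM. Fewer cells of a kind and less RNA per cell cannot be told apart in bulk RNA, and the part of the fall in lineage genes in the results below was not tested.

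The counting limits 3 of the members. Reads were counted without regard to strand, and the files list ambiguous reads apart from the genes. ATF4, ATF3, TRIB3, CHAC1, PSAT1, PHGDH and SESN2 have 100% of their exon bases to themselves in GENCODE 29, and the count without strand held at least 99.95% of the summed stranded counts. DDIT3 (chromosome 12, 57516588 to 57521737) shares 27.16% of its exon bases with MARS and 4.44% with MBD6, and its 4640 reads over the 48 libraries became 13056 when both stranded counts were summed. A further 8.03% overlaps the transcript AC022506.1 on the same strand, which counting by strand does not separate and to which neither count assigned a read. DDIT4 (chromosome 10, 72273920 to 72276036) shares 41.16% of its exon bases with the antisense transcript DDIT4-AS1, and its 13953 reads became 43670. For these 2 genes the stranded sum, chosen as an alternative after the data were seen, is given beside the drug effects whose call or direction it changes. ASNS (chromosome 7, 97852118 to 97872542) shares 44.56% of its exon bases with the transcript AC079781.5 on the same strand. It had only 778 reads over the 48 libraries, or 854 by the stranded sum, so its values describe the reads assigned to it and not its level.

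Before treatment the members spanned a wide range. In CPM per kilobase of exon, over the 6 DMSO libraries of an experiment, ATF4 was the highest in every set, at 194 ± 14.3 (SD, n = 6) and 109 ± 24.4 in the FHT-1015 and IDE196 sets of 92-1, 125 ± 12.7 in MP41 and 119.8 ± 32.9 in MEL202. By the count without strand PSAT1, the aminotransferase of serine synthesis, came next in each set, with 65.1 ± 6.03 and 55.3 ± 2.79 in the sets of 92-1, 28.4 ± 2.46 in MP41 and 57.8 ± 7.25 in MEL202. This order rests on the length of all annotated exons joined, which was 9217 bases for PHGDH and 2188 for PSAT1. In CPM alone PHGDH stood above PSAT1 in MP41, at 179 ± 52.5 against 62.1 ± 5.39, without overlap. The library ranges of ATF4 and PSAT1 did not overlap in any set. By the stranded sum DDIT4 stood at 34.4 ± 6.56 in MP41, above PSAT1 in its mean and overlapping it by library.

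Below them the order depended on the line and, for DDIT3 and DDIT4, on the count used. The orders that follow are by the count without strand. In the FHT-1015 experiment of 92-1 it ran CHAC1 (18.3 ± 2.35 CPM per kilobase), TRIB3 (6.63 ± 1.31), SESN2 (3.67 ± 0.195), DDIT3 (3.28 ± 0.246), ATF3 (1.63 ± 0.269), DDIT4 (0.485 ± 0.143), ASNS (0.108 ± 0.0452) and PHGDH (0.0810 ± 0.0217). Only ASNS and PHGDH overlapped among neighbours in that order. In MEL202 the levels of TRIB3, PHGDH, CHAC1, SESN2, ATF3, DDIT4 and DDIT3 lay close together, between 13.2 ± 3.25 and 5.11 ± 2.24, and each overlapped the next. In MP41, PSAT1, PHGDH (19.4 ± 5.70), TRIB3 (17.5 ± 4.33), SESN2 (13.7 ± 2.70), DDIT4 (11.4 ± 3.19) and CHAC1 (10.04 ± 2.67) formed such an overlapping chain, as did DDIT3 and ATF3. By the stranded sum, which can also take in reads of the overlapping genes, DDIT3 stood at 8.76 ± 0.396 in 92-1, above the means of TRIB3 and SESN2. In MEL202 that sum put DDIT4 (19.7 ± 3.57) and DDIT3 (13.3 ± 5.29) above the mean of TRIB3, and in MP41 it put DDIT3 (15.6 ± 1.80) above that of SESN2. The places of DDIT3 and DDIT4 in these orders are therefore not settled. Nor is that of PHGDH in MEL202 and MP41, which rests on the exon length used.

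**Figure D1:**
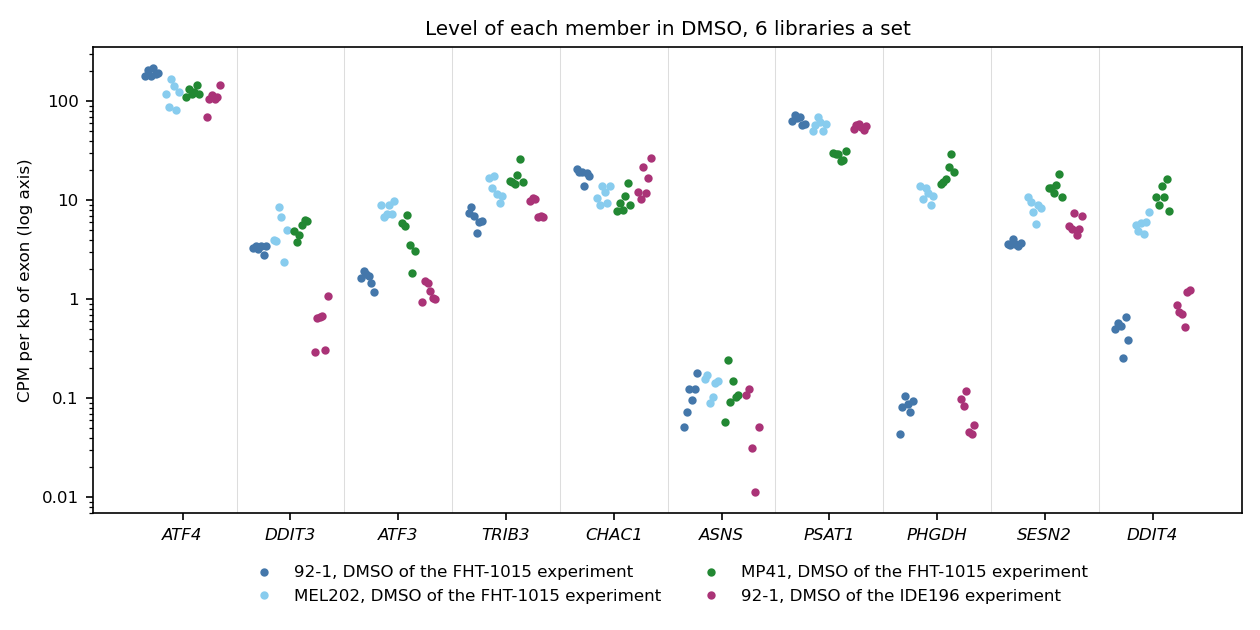
Level of each of the 10 genes in the DMSO libraries, in CPM per kilobase of exon on a log axis, 1 point per library and 6 libraries for each of the 4 DMSO sets (a library with 0 ASNS reads is not drawn). Counts are those without strand, by which ATF4 stands highest in every set and PSAT1 next, while PHGDH lies between 0.0431 and 0.119 in both sets of 92-1 and between 9.03 and 29.6 in MEL202 and MP41. The order depends on the exon length used, 9217 bases for PHGDH and 2188 for PSAT1.

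PHGDH, the dehydrogenase that opens serine synthesis, separated the lines most. Its 6 DMSO libraries lay between 0.397 and 0.983 CPM in 92-1, between 83.2 and 129 in MEL202 and between 134 and 273 in MP41. It was higher by 7.18 ± 0.19 on the log2 scale (SE) in MEL202 than in 92-1 and by 7.89 ± 0.20 in MP41 (adjusted p = 4.84e-24 and 4.88e-25, edgeR's quasi-likelihood test with Benjamini-Hochberg adjustment, as for every adjusted p that follows). DDIT4, an inhibitor of mTORC1, was higher by 3.63 ± 0.24 in MEL202 and 4.60 ± 0.24 in MP41. ATF3, SESN2 and TRIB3 were also higher in both than in 92-1, ATF3 by 2.37 and 1.396, SESN2 by 1.24 and 1.92, and TRIB3 by 1.02 and 1.43. ATF4 itself was lower in both (log2 differences -0.66 and -0.61), as was CHAC1 (-0.64 and -0.85). These differences are against the FHT-1015 set of 92-1, and line and experiment cannot be told apart. In the IDE196 set of 92-1 ATF4 averaged 273 CPM, below 301 in MEL202 and 314 in MP41, so the direction of its means depended on the set. CHAC1 averaged 34.2 CPM in that set, still above 23.5 in MEL202 and 20.7 in MP41. Of the 10 members, 9 differed among the lines in DMSO, all but ASNS, where 77.9% of the 18395 genes tested did. DDIT3 was the least firm of the 9 (adjusted p = 0.0274), and without 92-1 DMSO 4 h replicate 1 or 3 or 24 h replicate 2 its adjusted p was 0.0534 to 0.0693.

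FHT-1015 moved some of the 10 genes up and others down in each line, mostly by 24 h. All 10 passed the filter on low counts in every experiment. In 92-1 at 4 h 2 rose, against 12.9% of the genes tested, and 3 fell, against 16.7%, in all 5 of 10 against 29.5% of 15685 genes. At 24 h in that line 3 rose, against 29.2% of the genes tested, and 4 fell, against 31.4%, in all 7 of 10 against 60.6%. In MEL202 1 gene, TRIB3, fell at 4 h, where 0.157% of genes rose and 0.522% fell, 0.679% of 15913 in all. At 24 h 1 rose, against 8.69% of the genes tested, and 2 fell, against 10.1%, in all 3 of 10 against 18.8%. In MP41 no member passed at 4 h, where 0.0708% of genes rose and 0.154% fell, 0.225% of 15543 in all. Of the members 2, TRIB3 and DDIT4, had an unadjusted p under 0.05 there in edgeR, while DESeq2 called 0 and limma-voom 1. At 24 h 3 rose, against 17.4% of the genes tested, and 2 fell, against 18.7%, in all 5 of 10 against 36.1%. With IDE196 at 4 h 2 rose, against 6.89% of the genes tested, and 3 fell, against 9.3%, in all 5 of 10 against 16.2% of 15437 genes. At 24 h of IDE196 3 rose, against 28.7% of the genes tested, and 3 fell, against 29.4%, in all 6 of 10 against 58.1%. The shares of members at 24 h were thus near those of all genes. Treated and DMSO groups that did not overlap were common among all genes. In 92-1 with FHT-1015 they were found for 43.7% at 4 h and 65% at 24 h, and in MEL202 for 9.45% and 52%. In MP41 the shares were 20.9% and 42.3%, and with IDE196 30.1% and 65%. Gaps between groups given below are to be read beside these shares. The summed markers of other cell types were apart from DMSO in 3 of these 8 comparisons, at 11.1 to 13.0 CPM against 4.39 to 4.54 in 92-1 at 24 h, 6.23 to 10.6 against 3.42 to 5.02 in MEL202 at 4 h and 13.9 to 20.2 against 8.62 to 12.2 with IDE196 at 24 h. Of the 9 markers, 3 could be tested in the first, where the fibroblast collagen COL1A1 rose by 1.92 ± 0.20 and LUM fell (-1.84 ± 0.67), 5 in the second, where none passed, and 4 in the last, where COL1A1 rose by 0.80 ± 0.27. Their part in the members' changes was not tested.

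Taken as a list, the members did not move in 1 direction. Their median log2 fold change with FHT-1015 at 24 h was -0.11 in 92-1, -0.34 in MEL202 and 0.36 in MP41, and 0.15 with IDE196. The medians over all genes tested were -0.000817, -0.00551, 0.065 and 0.0288. At 4 h the members' medians were -0.22, -0.28, 0.00682 and 0.0305 in the same order. At 24 h TRIB3 and PSAT1 fell and DDIT4 rose in each of the 4 experiments, which have separate DMSO libraries.

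**Figure D2:**
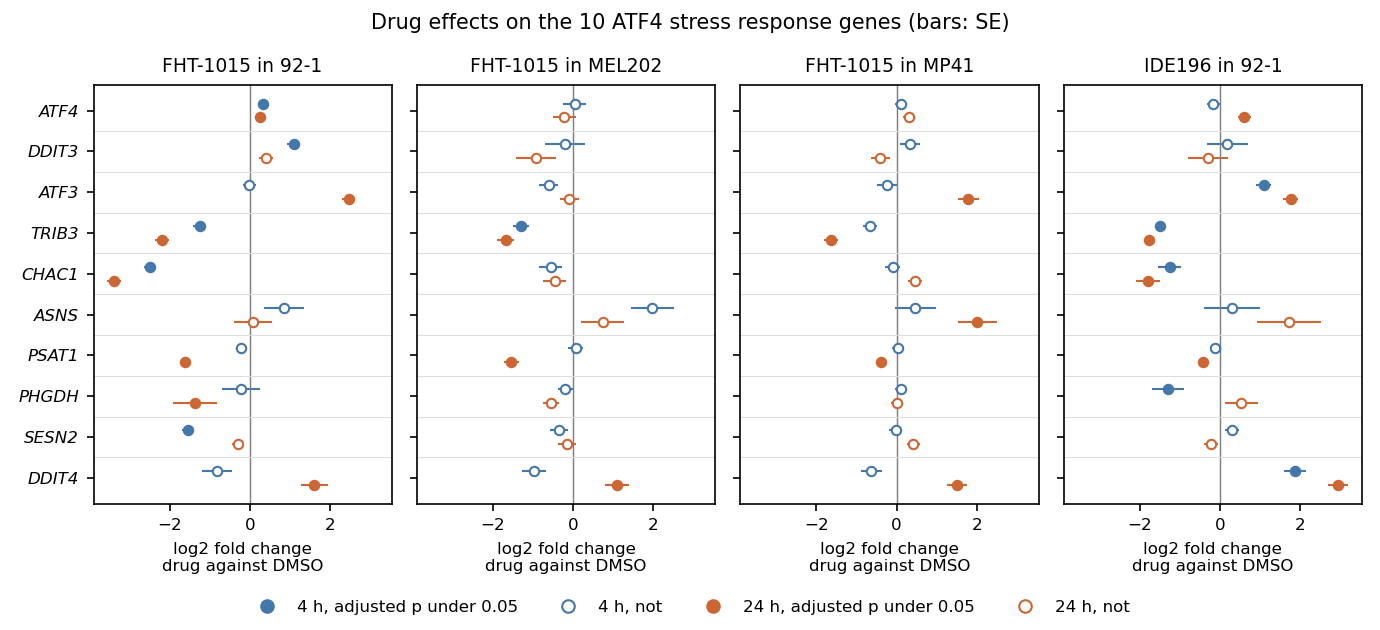
Log2 fold change of each member against the DMSO libraries of the same experiment and time, with its SE, at 4 h (blue) and 24 h (orange). Filled points passed an adjusted p of 0.05; TRIB3 lies below 0 in all 8 comparisons, from -0.65 to -2.19, and DDIT4 lies above 0 in all 4 at 24 h.

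The ATF4 message rose slightly in 92-1. At 4 h its level was 458, 518 and 449.9 CPM in DMSO and 513, 633 and 662 with FHT-1015, and the lowest treated library lay inside the DMSO range. At 24 h it was 542, 475 and 486 in DMSO and 639.6, 589 and 587 with FHT-1015, without overlap. The log2 fold changes were 0.32 ± 0.10 (adjusted p = 0.0224) and 0.25 ± 0.10 (0.0375). Both calls were lost in a single fit of all 48 libraries, with adjusted p of 0.365 and 0.33, and that at 24 h also without the filter on low counts (0.0596). The 4 h call was also lost without any one of DMSO 4 h replicates 1 and 3, FHT-1015 4 h replicates 2 and 3 (adjusted p 0.0794 to 0.0928), and the 24 h call without any one of DMSO 4 h replicates 1 and 3, DMSO 24 h replicates 2 and 3, FHT-1015 4 h replicate 2, FHT-1015 24 h replicates 1 and 2 (adjusted p 0.053 to 0.131).

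With IDE196 the ATF4 message read 185, 205 and 266 CPM at 4 h against 176, 268 and 288 in DMSO, and 489, 494 and 445 at 24 h against 262, 277 and 368. The 24 h groups did not overlap, and the log2 fold change was 0.61 ± 0.17 (adjusted p = 0.00467), while that at 4 h was -0.17 ± 0.17 (0.581). In MEL202 at 24 h ATF4 was 358, 205 and 310.1 in DMSO and 217, 267 and 257 with FHT-1015. The DMSO replicates of this line were far apart, and the log2 fold change of -0.22 ± 0.29 lay within that spread, as did 0.03 ± 0.29 at 4 h. In MP41 the 24 h levels were 308, 368 and 299 in DMSO and 293, 419 and 448 with FHT-1015, a log2 fold change of 0.31 ± 0.15 (adjusted p = 0.123), which passed in limma-voom (0.000795) and without FHT-1015 24 h replicate 1 (adjusted p 0.0185), and at 4 h it was 0.11 ± 0.15.

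DDIT3 encodes CHOP, the bZIP factor linked to death under prolonged stress. In 92-1 it rose at 4 h of FHT-1015, from 4.26, 4.51 and 4.24 CPM to 7.97, 8.82 and 11.6, and every treated library lay above the DMSO libraries. The log2 fold change was 1.09 ± 0.17 (adjusted p = 0.000167), and 0.90 by the stranded sum (adjusted p = 0.000114). At 24 h it read 5.57, 5.13 and 6.34 against 4.53, 3.68 and 4.48 in DMSO, a log2 fold change of 0.41 ± 0.18 (adjusted p = 0.06), and by the stranded sum 10.6, 10.7 and 12.7 against 12.2, 11.2 and 11.2, a log2 fold change of -0.04. The direction at 24 h thus depended on which reads were counted, and the rise passed with library size as the only scaling (0.0261) and without FHT-1015 4 h replicate 3 (adjusted p 0.0434). The rise at 4 h was larger than the effect at 24 h (-0.69 ± 0.25 for 24 h minus 4 h, adjusted p = 0.0322, and 0.000938 by the stranded sum). Without the filter on low counts that difference did not pass (0.0631), nor in the fit of 48 libraries (0.401) or without any one of DMSO 4 h replicates 1 and 3, DMSO 24 h replicates 1 and 3, FHT-1015 4 h replicate 3, FHT-1015 24 h replicates 1 and 2 (adjusted p 0.0558 to 0.0779).

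In the IDE196 experiment DDIT3 was near the limit of counting, at 0.885, 0.403 and 1.403 CPM in DMSO and 0.606, 0.578 and 1.13 with the drug at 24 h. The log2 fold changes of 0.18 ± 0.51 at 4 h and -0.29 ± 0.50 at 24 h did not pass. By the stranded sum the sign at 4 h turned (-0.12, adjusted p = 0.739). The 24 h levels by that sum were 4.57, 5.19 and 5.03 and 3.45, 2.68 and 3.63, and DDIT3 fell there by 0.63 on the log2 scale (adjusted p = 0.00616). In MEL202 the effects were -0.21 ± 0.49 at 4 h and -0.93 ± 0.50 at 24 h, and in MP41 0.34 ± 0.25 and -0.40 ± 0.25. None of these 4 passed, and the DMSO libraries of MEL202 alone ranged from 3.14 to 11.2 CPM. At 24 h in MEL202 it passed as lower in limma-voom (0.00391) and in the fit of 48 libraries (0.047). In MP41 at 24 h it passed as lower without FHT-1015 24 h replicate 3 (adjusted p 0.0255), whose value was 8.35 CPM against 4.48 and 4.43 in the others.

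ATF3 encodes a bZIP factor induced by many stresses, and FHT-1015 raised it late in 92-1. It stood at 6.70, 7.84 and 7.25 CPM in DMSO and 6.54, 8.82 and 6.58 with FHT-1015 at 4 h, with no separation between the groups (-0.01 ± 0.16 on the log2 scale). At 24 h it stood at 6.97, 5.89 and 4.79 in DMSO and 37.9, 28.7 and 32.6 with FHT-1015, a 5.52-fold rise (log2 fold change 2.46 ± 0.16, adjusted p = 3.88e-09). The 24 h effect exceeded the 4 h effect by 2.47 ± 0.23 (adjusted p = 6.24e-07).

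In MP41 ATF3 read 14.2, 7.53 and 12.4 CPM in DMSO and 27.0, 40.9 and 46.8 with FHT-1015 at 24 h, a log2 fold change of 1.79 ± 0.25 (adjusted p = 0.000125). The DMSO libraries of this line were themselves lower at 24 h than at 4 h, where they read 23.8, 22.1 and 28.7 and the FHT-1015 libraries 21.9, 18.6 and 22.8 (-1.19 ± 0.25 for DMSO at 24 h minus 4 h, adjusted p = 0.0339, with 2.54% of genes differing). That share is 395 genes, and leaving out 1 library moved their number to between 14 and 6835. The lowest of the 3 treated values at 24 h therefore lay inside the range of the 4 h DMSO values. That DMSO difference was lost without any one of 8 libraries, DMSO 4 h replicates 1, 2 and 3, DMSO 24 h replicate 1, FHT-1015 4 h replicates 2 and 3, FHT-1015 24 h replicates 2 and 3 (adjusted p 0.0521 to 0.145). In MEL202 no change in ATF3 passed: it read 36.01, 27.6 and 29.04 in DMSO and 20.2, 14.7 and 26.4 with FHT-1015 at 4 h, all treated values below DMSO, and 35.9, 29.5 and 40.1 and 27.2, 36.8 and 33.0 at 24 h, with overlap (-0.61 ± 0.24 and -0.10 ± 0.24, adjusted p = 0.428 and 0.819).

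IDE196 raised ATF3 at both times. At 4 h the levels were 3.81, 6.12 and 5.95 CPM in DMSO and 11.1, 9.96 and 13.0 with the drug, and at 24 h 4.85, 4.13 and 4.07 and 12.1, 17.4 and 16.2. The groups did not overlap at either time, and the log2 fold changes were 1.09 ± 0.19 (adjusted p = 0.000565) and 1.76 ± 0.19 (4.86e-07).

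TRIB3, a pseudokinase that ATF4 induces and that restrains ATF4 in return, fell at 24 h in every line and with both drugs. In 92-1 it stood at 25.5, 29.3 and 23.7 CPM in DMSO and 9.06, 11.9 and 12.8 with FHT-1015 at 4 h, and at 16.2, 20.7 and 21.0 and 4.39, 3.499 and 4.91 at 24 h. The drop was 2.38-fold at 4 h (log2 fold change -1.25 ± 0.16, adjusted p = 2.4e-05) and 4.55-fold at 24 h (-2.19 ± 0.18, 5.24e-08). The fall deepened with time (-0.94 ± 0.24 for 24 h minus 4 h on the log2 scale, adjusted p = 0.00472).

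In MEL202 TRIB3 stood at 57.0, 46.1 and 60.2 CPM in DMSO and 20.3, 23.9 and 22.7 with FHT-1015 at 4 h, and at 39.3, 32.0 and 38.4 and 10.1, 10.1 and 13.6 at 24 h. It fell 2.46-fold and 3.20-fold (log2 fold changes -1.30 ± 0.21 and -1.68 ± 0.21, adjusted p = 0.0116 and 0.000124). The 4 h call was lost in a fit of the 6 libraries compared (adjusted p = 0.35) and without any one of FHT-1015 4 h replicates 1 and 3 (adjusted p 0.0545 to 0.0764). In MP41 it stood at 54.1, 52.1 and 50.5 in DMSO and 37.3, 34.2 and 28.1 with FHT-1015 at 4 h, and at 62.4, 89.3 and 52.7 and 21.4, 20.4 and 20.7 at 24 h. The groups were apart at both times, but at 4 h the log2 fold change of -0.65 ± 0.17 did not pass (adjusted p = 0.214). It passed at 4 h in limma-voom (8.26e-05), in the fit of 6 libraries (0.0121), in that of 48 (0.0366) and without DMSO 24 h replicate 2 (adjusted p 0.0296). At 24 h the fall in MP41 was 3.11-fold (-1.64 ± 0.18, adjusted p = 1.34e-05).

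With IDE196 the 92-1 cells held 33.7, 36.2 and 35.7 CPM of TRIB3 in DMSO and 12.04, 12.5 and 13.3 with the drug at 4 h, and 23.1, 23.9 and 23.0 and 6.80, 7.82 and 6.54 at 24 h. Replicates were tight, and the log2 fold changes were -1.49 ± 0.10 (adjusted p = 3.14e-08) and -1.77 ± 0.11 (5.01e-10). The DMSO libraries of this set were lower at 24 h than at 4 h (-0.58 ± 0.10 on the log2 scale, adjusted p = 0.0134, 0.266% of genes), a call lost in the fit of 48 libraries (0.367) and without any one of DMSO 4 h replicates 5 and 6, DMSO 24 h replicates 4 and 6 (adjusted p 0.0513 to 0.1). Across the 8 drug comparisons all 3 treated libraries lay below all 3 DMSO libraries for TRIB3. The share of all genes for which that held ranged from 4.92% in MEL202 at 4 h to 32.6% in 92-1 with FHT-1015 at 24 h.

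**Figure D3:**
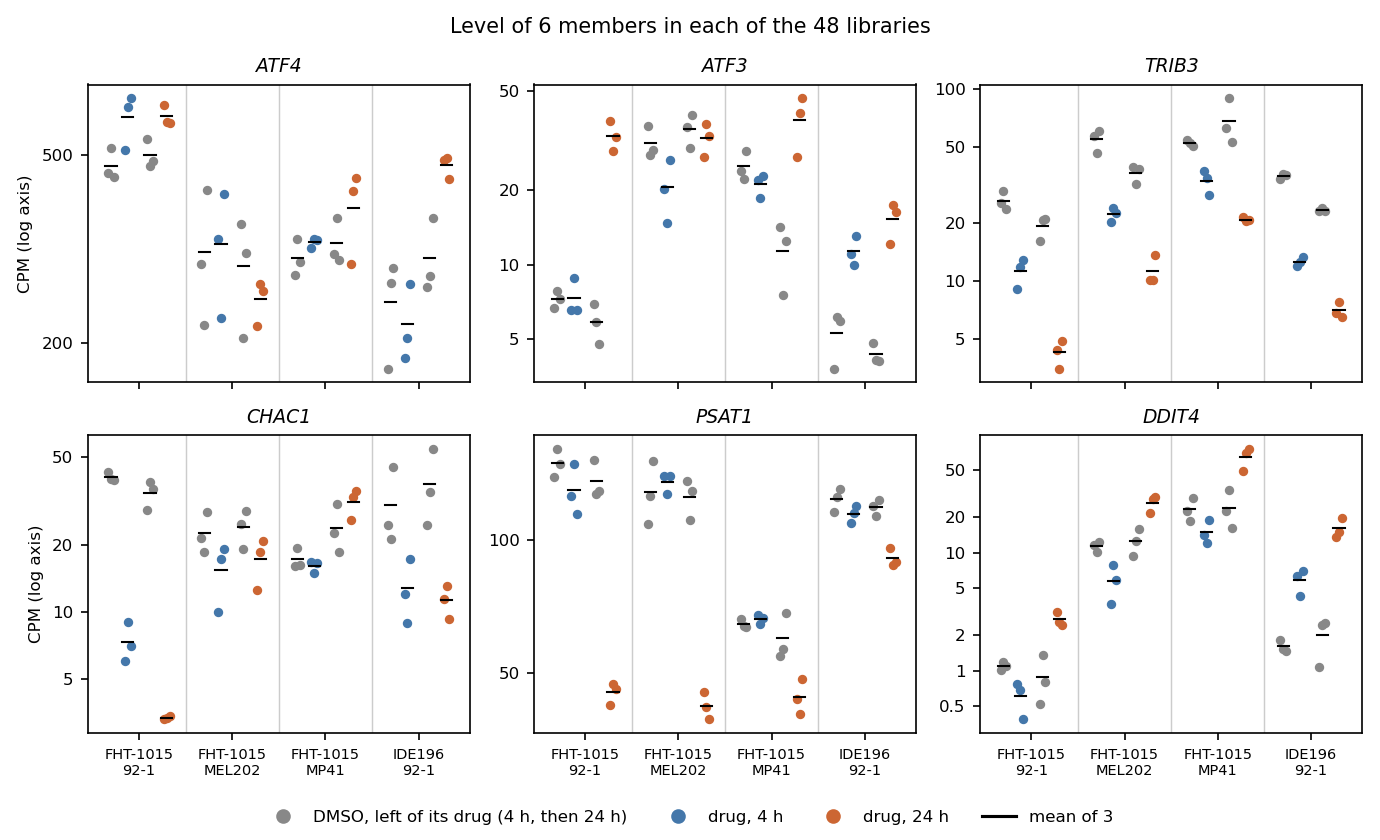
CPM of 6 members in each of the 48 libraries, on log axes, grouped by experiment; within an experiment the groups are DMSO and drug at 4 h, then DMSO and drug at 24 h, and bars are means of 3. TRIB3 is below its DMSO libraries in every experiment and time, CHAC1 is apart from DMSO at both times in 92-1 and overlaps it in MEL202 and MP41, and DDIT4 stands above its DMSO libraries at 24 h in all 4 experiments.

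CHAC1, an enzyme that breaks down glutathione, gave the largest fall of any member, in 92-1. There it stood at 42.9, 39.9 and 39.5 CPM in DMSO and 5.98, 9.05 and 7.04 with FHT-1015 at 4 h, and at 28.9, 38.7 and 35.8 and 3.27, 3.34 and 3.41 at 24 h. It fell 5.62-fold at 4 h (log2 fold change -2.49 ± 0.15, adjusted p = 1.24e-08) and 10.5-fold at 24 h (-3.39 ± 0.17, 2.23e-10). IDE196 also lowered it in this line: it stood at 24.7, 21.4 and 45.0 in DMSO and 12.1, 8.88 and 17.4 with the drug at 4 h, and at 24.6, 34.8 and 54.6 and 11.4, 13.1 and 9.28 at 24 h. The log2 fold changes were -1.26 ± 0.30 (adjusted p = 0.00631) and -1.80 ± 0.30 (5.77e-05), without overlap of the groups. The FHT-1015 effect at 24 h was lower than that at 4 h (-0.90 ± 0.23, adjusted p = 0.00465), a difference lost in the fit of 48 libraries (0.111).

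In MEL202 CHAC1 read 21.5, 18.6 and 28.4 CPM in DMSO and 10.01, 17.4 and 19.2 with FHT-1015 at 4 h, and 24.9, 19.3 and 28.6 and 12.5, 18.7 and 20.9 at 24 h, with overlap at both times (-0.56 ± 0.30 and -0.46 ± 0.29, adjusted p = 0.653 and 0.319). In MP41 it read 16.1, 19.4 and 16.4 and 16.8, 15.1 and 16.7 at 4 h, and 22.7, 30.8 and 18.6 and 26.01, 33.2 and 35.04 at 24 h. The 24 h log2 fold change in MP41 was 0.46 ± 0.18, above 0, with an adjusted p of 0.0577. It passed as a rise in limma-voom (0.000171), with the stranded sum (0.0428) and without DMSO 24 h replicate 2 or FHT-1015 24 h replicate 1 (adjusted p 0.00815 to 0.0402). In MEL202 at 24 h limma-voom called it lower (0.016). The difference among lines was tested: the FHT-1015 effect on CHAC1 in MEL202 minus that in 92-1 was 1.91 at 4 h and 2.88 at 24 h, and in MP41 minus 92-1 2.38 and 3.74 (adjusted p over the 3 lines = 5.03e-05 and 4.88e-09).

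PSAT1 and PHGDH carry out the first steps of serine synthesis from glycolysis. PSAT1 fell at 24 h in all 3 lines. In 92-1 it went from 152, 127 and 129 CPM in DMSO to 42.3, 47.2 and 45.9 with FHT-1015, a 3.05-fold fall (log2 fold change -1.61 ± 0.10, adjusted p = 2.99e-09). In MEL202 it went from 135, 111 and 129 to 45.3, 41.9 and 39.2, a 2.92-fold fall (-1.55 ± 0.19, 9.81e-05). Treated and DMSO libraries were far apart in both lines.

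In MP41 PSAT1 went from 54.7, 56.5 and 68.2 CPM to 43.6, 40.3 and 48.3 at 24 h, which kept the groups apart but gave a log2 fold change of only -0.39 ± 0.14 (adjusted p = 0.0456). That call was lost without any one of 9 libraries, DMSO 4 h replicates 1, 2 and 3, DMSO 24 h replicates 1 and 3, FHT-1015 4 h replicate 2, FHT-1015 24 h replicates 1, 2 and 3 (adjusted p 0.054 to 0.153). It was also lost without the filter on low counts (0.174), with the stranded sum (0.0578), with the replicate number as a block (0.0501) and in the fit of 6 libraries (0.137). At 4 h no change passed in the 3 lines: the treated values were 125, 148 and 114 in 92-1, 139, 127 and 139 in MEL202 and 67.4, 64.5 and 66.4 in MP41, against 139, 160.4 and 148, 108, 125 and 151 and 66.1, 63.7 and 63.6 in DMSO. The log2 fold changes were -0.23 ± 0.10, 0.06 ± 0.18 and 0.03 ± 0.14, and the first passed without FHT-1015 4 h replicate 2 (adjusted p 0.0244). IDE196 lowered PSAT1 at 24 h from 119, 113 and 123 to 95.6, 87.6 and 89.1 (-0.43 ± 0.08, adjusted p = 0.00018), and at 4 h the levels were 116, 125 and 129.8 and 109, 115 and 119.

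PHGDH was abundant in MEL202 and MP41 and near the limit of counting in 92-1. In MEL202 it read 109.5, 83.2 and 102 CPM in DMSO and 66.5, 66.5 and 64.5 with FHT-1015 at 24 h, all treated values below all DMSO values, a log2 fold change of -0.56 ± 0.19 with an adjusted p of 0.06. It passed there with DESeq2 (0.0214), limma-voom (8.61e-05), the fit of 6 (0.00764) or of 48 libraries (0.0082), and without any one of DMSO 4 h replicates 1, 2 and 3, FHT-1015 4 h replicate 2 (adjusted p 0.0327 to 0.0497). In MP41 it read 201, 273 and 177 and 183, 217 and 228, with no difference beyond the spread (0.02 ± 0.15). At 4 h its log2 fold changes were -0.19 ± 0.19 in MEL202 and 0.11 ± 0.15 in MP41.

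In 92-1 PHGDH read 0.811, 0.675 and 0.860 CPM in DMSO and 0.279, 0.488 and 0.179 with FHT-1015 at 24 h, values that rest on few reads (-1.37 ± 0.54, adjusted p = 0.04). This call was lost with DESeq2 (0.0663), with library size as the only scaling (0.0523) and without any one of DMSO 24 h replicates 1, 2 and 3, FHT-1015 24 h replicates 1 and 3 (adjusted p 0.0524 to 0.16). With IDE196 it read 0.904, 0.766 and 1.09 in DMSO and 0.485, 0.323 and 0.288 with the drug at 4 h (-1.30 ± 0.40, adjusted p = 0.034), and 0.419, 0.403 and 0.498 and 0.745, 0.578 and 0.654 at 24 h (0.53 ± 0.41, 0.279). The 4 h call was lost without the filter (0.147), with DESeq2 (0.055), in the fit of 6 libraries (0.0589) and without any one of DMSO 4 h replicates 4, 5 and 6, DMSO 24 h replicates 4 and 5, IDE196 4 h replicates 2 and 3, IDE196 24 h replicate 2 (adjusted p 0.0502 to 0.131). At 4 h of FHT-1015 the log2 fold change was -0.22 ± 0.47.

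ASNS, asparagine synthetase, is a classical ATF4 target. Whether the overlap or a low level gave its few reads was not tested, and only the reads assigned to it could be compared. In MP41 at 24 h these came to 0.663, 0.463 and 0.481 CPM in DMSO and 1.73, 2.14 and 2.44 with FHT-1015, above DMSO in all 3 libraries (2.01 ± 0.49, adjusted p = 0.0061). In MEL202 at 4 h they came to 0.699, 0.766 and 0.399 and 1.80, 4.21 and 1.34, also without overlap but not past the threshold (1.98 ± 0.54, adjusted p = 0.159), which DESeq2 (0.0232) and the fit of 48 libraries (0.0294) passed. The other log2 fold changes were 0.85 ± 0.49 and 0.08 ± 0.48 in 92-1 with FHT-1015, 0.73 ± 0.54 in MEL202 at 24 h, 0.46 ± 0.51 in MP41 at 4 h, and 0.29 ± 0.70 and 1.73 ± 0.80 with IDE196, none of which passed. The last did in the fit of 48 libraries (0.0463) and without DMSO 4 h replicate 6 (adjusted p 0.0256).

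SESN2 encodes Sestrin 2, a leucine sensor that restrains mTORC1. In 92-1 it fell at 4 h and lay nearer to DMSO at 24 h: it stood at 12.5, 12.3 and 13.9 CPM in DMSO and 3.60, 5.05 and 5.03 with FHT-1015 at 4 h, and at 12.6, 12.03 and 12.7 and 8.98, 10.4 and 11.4 at 24 h. The 4 h fall was 2.88-fold (log2 fold change -1.53 ± 0.15, adjusted p = 1.7e-06). At 24 h the log2 fold change was -0.30 ± 0.14 (adjusted p = 0.0834), and it passed in limma-voom (0.0422), with the replicate number as a block (0.0462) and without FHT-1015 4 h replicate 1 (adjusted p 0.0405). The 24 h effect differed from the 4 h effect by 1.23 ± 0.21 (adjusted p = 0.000189).

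The early fall in SESN2 differed among lines: the 4 h effect in MEL202 minus that in 92-1 was 1.16 and in MP41 minus 92-1 1.496 (adjusted p over the 3 lines = 0.00129). In MEL202 the log2 fold changes were -0.36 ± 0.22 and -0.15 ± 0.22 at 4 h and 24 h, and in MP41 -0.02 ± 0.16 and 0.42 ± 0.16. The last of these, from 48.7, 64.2 and 37.5 CPM to 61.1, 64.1 and 66.1, had an adjusted p of 0.0558, and passed in limma-voom (0.000628), with the stranded sum (0.0375) and without DMSO 24 h replicate 2 (adjusted p 0.00443). IDE196 gave 0.30 ± 0.17 and -0.22 ± 0.17, neither past the threshold.

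DDIT4 encodes REDD1, which restrains mTORC1 through the TSC complex. With FHT-1015 it rose at 24 h in all 3 lines. In 92-1 it stood at 0.525, 1.35 and 0.798 CPM in DMSO and 3.13, 2.60 and 2.45 with FHT-1015 (log2 fold change 1.61 ± 0.34, adjusted p = 0.000692). In MEL202 it stood at 9.42, 12.4 and 15.8 and 21.5, 28.5 and 29.4 (1.09 ± 0.29, 0.0173), and in MP41 at 22.3, 33.6 and 15.96 and 49.2, 68.9 and 75.5 (1.505 ± 0.26, 0.000504). The groups did not overlap in any of the 3 lines, and the MEL202 call was lost without any one of DMSO 24 h replicates 1 and 2, FHT-1015 24 h replicates 2 and 3 (adjusted p 0.0571 to 0.0853). Of all genes 32.4%, 25.8% and 20% had every treated library above DMSO at 24 h in 92-1, MEL202 and MP41.

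At 4 h of FHT-1015 the DDIT4 values lay lower than in DMSO, at 0.780, 0.682 and 0.387 CPM against 1.02, 1.18 and 1.11 in 92-1, 3.64, 7.84 and 5.85 against 11.6, 10.1 and 12.3 in MEL202 and 14.0, 12.1 and 18.8 against 22.3, 18.4 and 28.8 in MP41. Treated and DMSO libraries were apart in the first 2 lines, but none of the log2 fold changes passed: -0.82 ± 0.37, -0.97 ± 0.30 and -0.63 ± 0.26 (adjusted p = 0.11, 0.222 and 0.698), and that of MEL202 passed in the fit of 48 libraries (0.0357). The 24 h effect exceeded the 4 h effect in each line, by 2.43 ± 0.50 in 92-1, 2.07 ± 0.42 in MEL202 and 2.14 ± 0.36 in MP41 (adjusted p = 0.000992, 0.00921 and 0.00126). In 92-1 the DDIT4 values rest on few reads a library, 18 to 22 in DMSO and 6 to 18 with FHT-1015 at 4 h. At 24 h the DMSO libraries held 11 to 22. By the stranded sum the difference between times in 92-1 was 1.76 (adjusted p = 0.000302). IDE196 raised DDIT4 already at 4 h, from 1.81, 1.53 and 1.47 to 6.35, 4.25 and 6.96 (1.86 ± 0.27, adjusted p = 0.000125), and further at 24 h, from 1.07, 2.42 and 2.54 to 13.6, 14.8 and 19.7 (2.94 ± 0.26, 3.57e-08), a 7.70-fold rise and the largest of any member.

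Whether the lines differed in the effect of FHT-1015 was tested for each member in 1 fit of 36 libraries. At 4 h CHAC1 and SESN2 passed, 2 of 10 against 1.38% of genes, and at 24 h CHAC1, ATF3 and PSAT1, 3 of 10 against 12%. For ATF3 the 24 h effect in MEL202 minus that in 92-1 was -2.61, and in MP41 minus 92-1 -0.76 (adjusted p = 2.49e-06). For PSAT1 these differences were 0.02 and 1.13 (adjusted p = 5.06e-05). For TRIB3 and DDIT4, which moved the same way in the 3 lines at 24 h, no difference passed (adjusted p = 0.364 and 0.634), with TRIB3 differences of 0.47 and 0.45. In limma-voom TRIB3 passed also at 4 h (0.045), and 8 of 10 members passed at 24 h, TRIB3 among them (0.0118). That fit called 9601 of 18395 genes at 24 h, and 1485 at 4 h, against 12% and 1.38% in edgeR. PHGDH passed at 24 h in the fit of 48 libraries (0.0463, against 0.0987 in that of 36).

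Between 24 h and 4 h of DMSO few members differed in edgeR, and more in other fits of MP41. Of the 10, none differed between 24 h and 4 h in the FHT-1015 experiment of 92-1, where 0.344% of genes did (0.0638% higher and 0.281% lower at 24 h), and none in MEL202, where 0% did. TRIB3 had an unadjusted p under 0.05 in each, and DESeq2 and limma-voom called 0. ATF3 in MP41, lower at 24 h as were 0.978% of genes while 1.56% were higher, and TRIB3 in the IDE196 experiment (0.104% lower and 0.162% higher) were the exceptions given above. In MP41 DESeq2 called 2 members and 1792 of 12797 genes, the fit of 48 libraries 2 members and 2895 of 18871 genes. There limma-voom called 4 of the 10 members and 8302 of 15543 genes, so the members' share was below that of all genes. PHGDH was higher at 24 h in all 3 (adjusted p = 0.0159, 0.0145 and 5.22e-05), against 0.54 ± 0.15 and 0.064 in edgeR. Without DMSO 24 h replicate 3 edgeR called PHGDH (adjusted p 0.0017), CHAC1 (adjusted p 0.0139) and TRIB3 (adjusted p 0.0222) there too, among 6835 genes called in place of 395. The drug effect itself differed between 24 h and 4 h for 7 members in 92-1 with FHT-1015, 3 above 0 and 4 below, against 45.5% of genes, 21.1% above and 24.3% below 0. It differed for 2 in MEL202, PSAT1 (below 0) and DDIT4 (above 0), against 6.89% of genes, 3% above and 3.9% below 0. In MP41 it did so for 3, ATF3 and DDIT4 (above 0) and TRIB3 (below), against 18.6% of genes, 7.73% above and 10.9% below 0. With IDE196 it did so for 4, 3 above 0 and PSAT1 below, against 30.7% of genes, 13.5% above and 17.2% below 0.

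The 2 drugs were compared in 92-1 as the effect of each against its own DMSO libraries. At 4 h 4 of 10 members differed, against 24.6% of the 16917 genes tested. DDIT4 gave the widest gap, -2.67 ± 0.47 on the log2 scale for FHT-1015 minus IDE196 (adjusted p = 0.000103), followed by SESN2 (-1.83 ± 0.24, 1.78e-06), CHAC1 (-1.24 ± 0.37, 0.0153) and ATF3 (-1.10 ± 0.26, 0.00225). All 4 were lower with FHT-1015 relative to IDE196. The DDIT4 levels of the FHT-1015 experiment rest on few reads, and by the stranded sum its gap was -2.39 (adjusted p = 7.73e-07). The CHAC1 call was lost in limma-voom (0.0694) and without IDE196 4 h replicate 3 (adjusted p 0.067). DDIT3 differed by 0.91 ± 0.48 (adjusted p = 0.175), and by 1.03 with the stranded sum, which passed (0.000356).

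At 24 h 5 of 10 members differed, against 33%. PSAT1 (-1.18 ± 0.13, adjusted p = 4.3e-08), CHAC1 (-1.59 ± 0.41, 0.00344), PHGDH (-1.89 ± 0.66, 0.0289) and DDIT4 (-1.33 ± 0.44, 0.0217) were lower with FHT-1015 than with IDE196, and ATF3 (0.71 ± 0.26, 0.036) was higher. Single libraries ended the calls of ATF3 (DMSO 24 h replicates 2, 3 and 4, FHT-1015 24 h replicate 1, IDE196 24 h replicate 1; adjusted p 0.0548 to 0.101), PHGDH (DMSO 24 h replicates 1, 3, 4 and 5, FHT-1015 24 h replicates 1 and 3, IDE196 24 h replicate 1; adjusted p 0.0534 to 0.0996) and DDIT4 (DMSO 24 h replicates 2 and 4, FHT-1015 24 h replicate 3, IDE196 24 h replicate 3; adjusted p 0.05 to 0.177), where replicates 4 to 6 of DMSO are those of IDE196. ATF3 and DDIT4 also fell short in the fit of 48 libraries (0.172 and 0.0525), and PHGDH without the filter (0.11). DDIT3, by the stranded sum, was higher with FHT-1015 by 0.60 (0.0262). For TRIB3 the difference was 0.24 ± 0.19 at 4 h and -0.42 ± 0.21 at 24 h, and for ATF4 0.48 ± 0.21 and -0.36 ± 0.21, none of them past the threshold. The ATF4 difference at 4 h passed without the filter (0.011) and without any one of FHT-1015 4 h replicate 1, DMSO 4 h replicate 4, IDE196 4 h replicate 3 (adjusted p 0.00699 to 0.0428). In limma-voom ATF4 passed at both times (0.00788 and 0.0409) and TRIB3 at 24 h (0.0169).

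**Figure D4:**
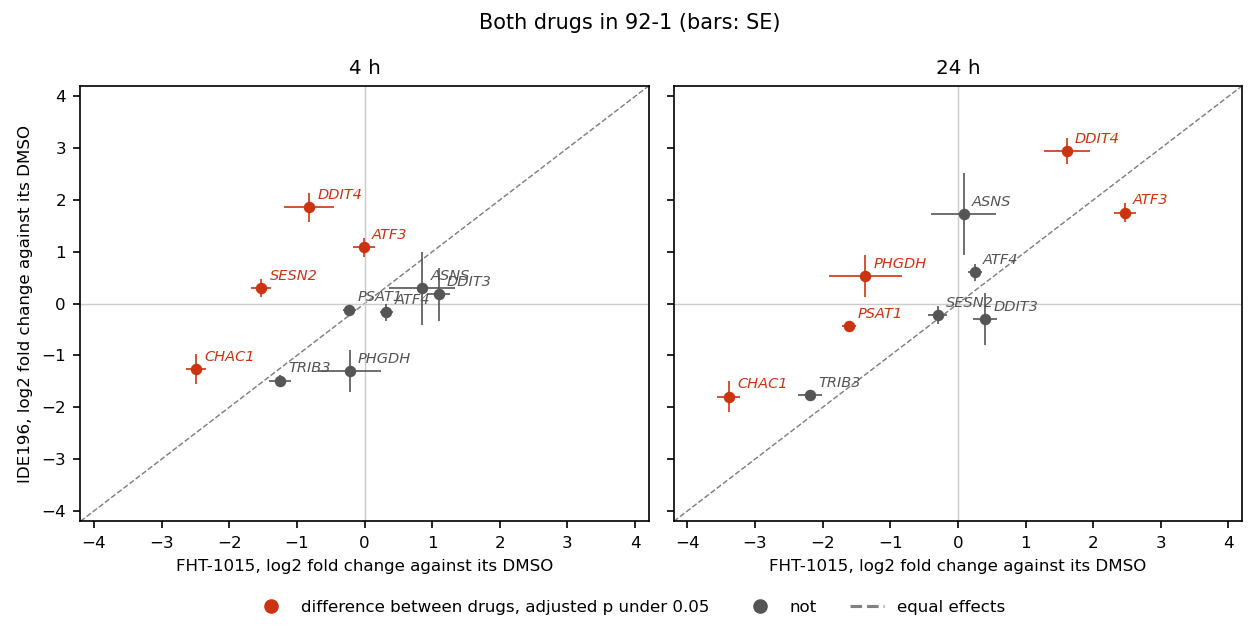
Log2 fold change of each member in 92-1 with FHT-1015 (x axis) and IDE196 (y axis), each against its own DMSO libraries, with SE, at 4 h and 24 h; red marks members whose 2 effects differed. TRIB3 lies near the dashed line of equal effects at both times, and DDIT4 lies above it at 4 h (-0.82 against 1.86).

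The 2 DMSO sets of 92-1 were not alike for these genes. Between them 7 of 10 members differed, against 60.4% of genes, so levels are not comparable across the experiments of this line. DDIT3 was lower in the IDE196 set (-2.39 ± 0.23 on the log2 scale, adjusted p = 2.25e-09, and -1.34 by the stranded sum). ATF4 was lower there (-0.81, 4.49e-07), as were ATF3 (-0.42, 0.0104) and PSAT1 (-0.20, 0.00778), and DDIT4, SESN2 and TRIB3 were higher (0.90, 0.68 and 0.38, adjusted p = 0.002, 1.65e-05 and 0.000845). The ATF3 call was lost in limma-voom (0.0577) and that of PSAT1 without the filter (0.0928), while limma-voom also called ASNS lower (0.00315). The labels used here give no batch or date, and the cause of this difference was not tested.

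Other genes that ATF4 is known to control were counted beside the members. At 24 h 31.4%, 10.1% and 18.7% of all genes fell with FHT-1015 in 92-1, MEL202 and MP41 and 29.4% with IDE196, and 29.2%, 8.69%, 17.4% and 28.7% rose. The counts of each list below are to be read beside those shares. Of amino acid transporters 7 of 8 listed were tested, and at 24 h 6 fell and 1 rose in 92-1 with FHT-1015, 5 and 1 in MEL202, 5 and 1 in MP41, and 4 and 1 with IDE196, with median log2 fold changes of -1.48, -1.11, -1.26 and -0.96. The largest fall was that of SLC7A5, the leucine carrier, in the 3 lines with FHT-1015 (-4.11 ± 0.11, -2.004 ± 0.28 and -2.20 ± 0.22), and that of the glutamine carrier SLC1A5 with IDE196 (-2.12 ± 0.12). SLC38A2, another glutamine and alanine carrier, was the one that rose with FHT-1015 (1.00 ± 0.09, 1.02 ± 0.30 and 2.03 ± 0.30), and SLC1A4 the one that rose with IDE196 (2.15 ± 0.17). At 4 h 4 of 7 transporters had fallen in 92-1 with FHT-1015, 0 in MEL202, 0 in MP41 and 2 with IDE196, which also raised 1. Of all genes 16.7%, 0.522%, 0.154% and 9.3% had fallen then, and 6.89% had risen with IDE196, so 0 of 7 in MEL202 and MP41 is what the share of all genes gives.

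Aminoacyl-tRNA synthetases charge tRNAs with amino acids. At 24 h 8 of 11 fell and 0 rose in 92-1 with FHT-1015, 4 and 0 in MEL202, 1 and 1 in MP41, and 8 and 1 with IDE196. In MP41 that was below the share of all genes. The medians were -0.57, -0.51, -0.17 and -0.57. Of 8 further genes of serine, one-carbon, proline and cysteine synthesis, 5, 5, 3 and 3 fell and 1, 0, 1 and 1 rose in the same order, with medians of -0.62, -0.62, -0.31 and -0.21. The folate enzyme MTHFD1L gave the largest fall of that list in 92-1 with FHT-1015 (-1.22 ± 0.09), and MTHFD2 with IDE196 (-1.49 ± 0.09). CTH, which makes cysteine, rose in MP41 by 3.72 ± 0.26.

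A list of other ATF4 targets (VLDLR, STC2, GDF15, FGF21, XPOT, EIF4EBP1 and TNFRSF10B) had 6 genes tested in 92-1 and MEL202 and 5 in MP41. With FHT-1015 at 24 h 5 fell and 1 rose in 92-1, 3 and 1 in MEL202, and 3 and 1 in MP41, and with IDE196 6 of 6 fell (medians -1.13, -0.98, -0.68 and -1.54). The largest falls were those of STC2, a secreted glycoprotein, in 92-1 (-1.997 ± 0.12) and MEL202 (-2.55 ± 0.42), and of GDF15, a stress hormone, in MP41 (-2.10 ± 0.20) and with IDE196 (-3.87 ± 0.53). The lipoprotein receptor VLDLR was the one that rose with FHT-1015 (2.08 ± 0.09, 0.81 ± 0.25 and 2.03 ± 0.23). NUPR1, a chromatin cofactor, fell with FHT-1015 (log2 fold changes -3.51 ± 0.27, -1.36 ± 0.39 and -2.17 ± 0.16) and rose with IDE196 (0.58 ± 0.20). It was taken from a separate list of partner factors, and the other genes of that list are not described here.

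The parallel ATF6 and IRE1 arms of the unfolded protein response were counted for comparison. Of 14 genes, 11, 6, 7 and 11 fell at 24 h in 92-1, MEL202 and MP41 with FHT-1015 and with IDE196, and 0, 0, 1 and 1 rose (medians -0.73, -0.72, -0.54 and -1.30). XBP1, the IRE1 effector, gave the largest fall with FHT-1015 in each line (-1.82 ± 0.10, -1.55 ± 0.24 and -1.17 ± 0.14), and MANF, a folding factor of the endoplasmic reticulum, with IDE196 (-1.90 ± 0.15). Among regulators of eIF2, such as its kinases and phosphatase subunits, 6, 1, 2 and 4 of 8 fell and 1, 0, 2 and 1 rose. Of 10 p53 targets (9 tested in MP41), which share SESN2 with the members by textbook knowledge, 4, 1, 1 and 0 fell and 4, 2, 6 and 4 rose, and of 7 to 8 tested hypoxia targets, a set to which DDIT4 is also counted, 4, 2, 4 and 4 fell and 1, 1, 1 and 2 rose.

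**Figure D5:**
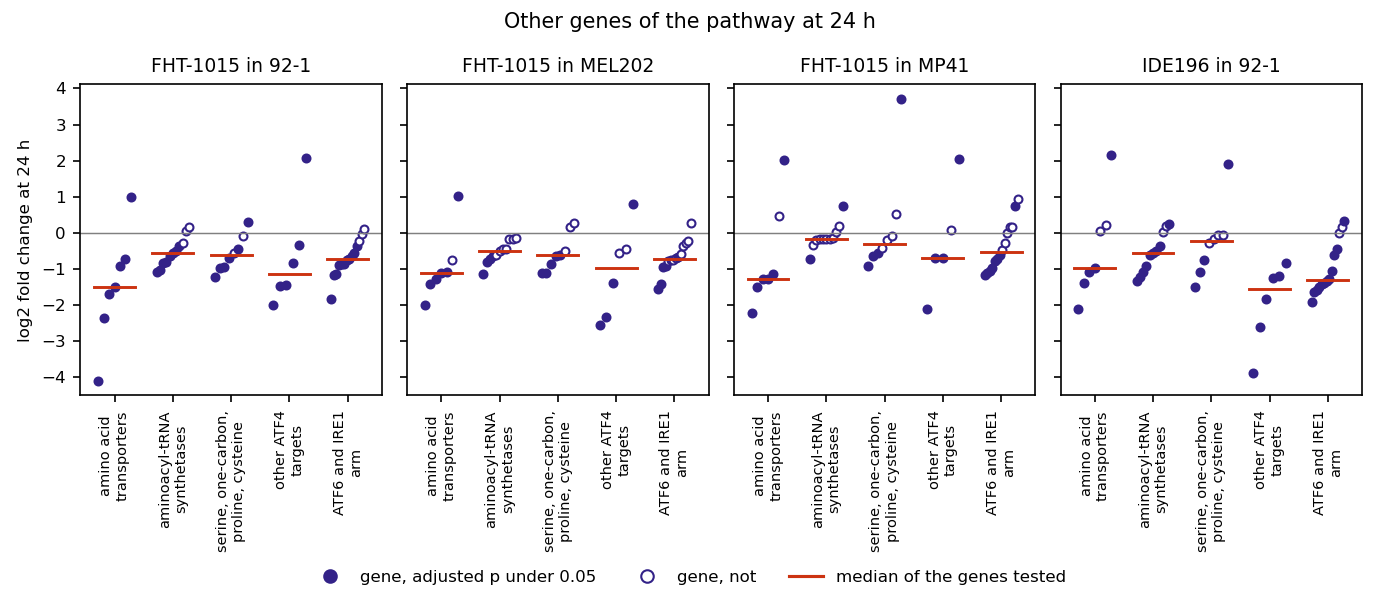
Log2 fold change at 24 h of every tested gene in 5 lists related to the pathway, by experiment, sorted within a list; filled points passed an adjusted p of 0.05 and red bars are list medians. The medians lie below 0 in all 4 experiments for all 5 lists, with single genes such as CTH in MP41 and VLDLR with FHT-1015 far above.

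The members did not share 1 profile over the libraries. As log2 CPM minus the mean of the experiment's DMSO libraries, each member's Pearson correlation with the mean of the other 9 over the 48 libraries ran from -0.19 for ATF3 to 0.49 for SESN2, with 0.23 for ATF4 and -0.06 for TRIB3. The points share experiments and DMSO baselines, so these values only describe. Among 10484 protein-coding genes with a mean of at least 5 CPM, the 5 most like the mean profile of the 10 members were PCK2 (r = 0.83), MICAL1 (0.82), PABPC4 (0.81), CAMK2N1 (0.78) and GBGT1 (0.76), over the same 48 libraries.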

How the data were processed

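RNA from 48 cell line libraries was sequenced after poly-T selection with a kit that does not mark strand, per the labels' protocols. The authors deposited raw read counts per gene, and the column of counts without regard to strand was used. The build hg38 and limma are named in the submitters' processing notes, while the aligner and annotation are not given in the sources used here. Of 58870 genes, 58597 matched GENCODE 29 by Ensembl ID, 47420 of them in the same version. Rows for spike-ins and unassigned reads were left out of library sizes.

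Printed CPM were scaled by TMM over all 48 libraries, and CPM per kilobase used the exon length of GENCODE 29. Fold changes came from edgeR 4.0.16 (R 4.3.3) with TMM, genes kept by filterByExpr (minimum count 10, minimum total 15) and the quasi-likelihood test, fitted on the 12 libraries of an experiment. The 36 libraries of the FHT-1015 experiments were fitted together to compare lines, and the 24 libraries of 92-1 to compare drugs. P-values were adjusted by Benjamini-Hochberg over all genes tested, with 0.05 as the threshold. The code was tested on simulated counts. Alternatives were other scalings, no filter, DESeq2 1.42.0, limma-voom 3.58.1 with quality weights, other sets of libraries, a replicate block, each library left out in turn and, added after the data were seen, the sum of both stranded counts. Named genes of other lists are the largest rise and fall per list and experiment at 24 h among genes that passed. The members and lists were chosen with earlier results of these data known.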

Additional observations from a re-analysis of the deposited data

Results flagged for a closer look

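Effects that differed between times, lines or drugs are listed with the log2 difference and the adjusted p of edgeR's quasi-likelihood test of that difference. The effect of FHT-1015 at 24 h minus that at 4 h differed from 0 in 92-1 for DDIT3 (-0.69, 0.0322), ATF3 (2.47, 6.24e-07), TRIB3 (-0.94, 0.00472), CHAC1 (-0.90, 0.00465), PSAT1 (-1.38, 1.64e-06), SESN2 (1.23, 0.000189) and DDIT4 (2.43, 0.000992). In MEL202 it did so for PSAT1 (-1.61, 0.00264) and DDIT4 (2.07, 0.00921), and in MP41 for ATF3 (2.03, 0.00155), TRIB3 (-0.98, 0.0138) and DDIT4 (2.14, 0.00126). With IDE196 it did so for ATF4 (0.77, 0.019), PSAT1 (-0.32, 0.0431), PHGDH (1.83, 0.0218) and DDIT4 (1.09, 0.0389). Each of the 4 calls with IDE196 was lost without some single libraries, ATF4 without any one of DMSO 4 h replicate 6, DMSO 24 h replicates 4 and 5, IDE196 4 h replicates 1 and 2 (adjusted p 0.0505 to 0.0583), PSAT1 without any one of DMSO 4 h replicates 4, 5 and 6, DMSO 24 h replicates 4 and 6, IDE196 4 h replicates 2 and 3, IDE196 24 h replicates 2 and 3 (adjusted p 0.0552 to 0.0963), PHGDH without any one of DMSO 4 h replicate 6, DMSO 24 h replicates 4 and 5, IDE196 4 h replicates 2 and 3, IDE196 24 h replicate 1 (adjusted p 0.0522 to 0.0609) and DDIT4 without any one of DMSO 4 h replicates 4, 5 and 6, DMSO 24 h replicate 4, IDE196 4 h replicate 2, IDE196 24 h replicates 2 and 3 (adjusted p 0.0501 to 0.0968). In 92-1 with FHT-1015 the call was lost for DDIT3 without any one of DMSO 4 h replicates 1 and 3, DMSO 24 h replicates 1 and 3, FHT-1015 4 h replicate 3, FHT-1015 24 h replicates 1 and 2 (adjusted p 0.0558 to 0.0779). In the fit of 48 libraries the calls of DDIT3 and CHAC1 with FHT-1015 in 92-1 were lost (0.401 and 0.111), as were those of ATF4, PSAT1 and DDIT4 with IDE196 (0.0654, 0.348 and 0.0905). Without the filter DDIT3 in 92-1 with FHT-1015 (0.0631) and PSAT1 and PHGDH with IDE196 were lost (0.191 and 0.101). That of PSAT1 was also lost with library size as the only scaling (0.0782) and with the stranded sum (0.0509). Gained with IDE196 were ATF3 with library size as the only scaling (0.0463), without the filter (0.0365) and in limma-voom (0.0277). CHAC1 and SESN2 were gained without the filter (0.0376 and 0.0459). ATF3 also passed without DMSO 4 h replicate 4 or IDE196 24 h replicate 1 (0.0118 and 0.0293), and SESN2 without DMSO 4 h replicate 6 or 24 h replicate 4 (0.0382 and 0.0482).

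The effect of FHT-1015 differed among the 3 lines at 4 h for CHAC1 (adjusted p = 5.03e-05) and SESN2 (0.00129), and at 24 h for ATF3 (2.49e-06), CHAC1 (4.88e-09) and PSAT1 (5.06e-05). The effect of FHT-1015 minus that of IDE196 in 92-1 differed from 0 at 4 h for ATF3 (-1.10, 0.00225), CHAC1 (-1.24, 0.0153), SESN2 (-1.83, 1.78e-06) and DDIT4 (-2.67, 0.000103). At 24 h it did so for ATF3 (0.71, 0.036), CHAC1 (-1.59, 0.00344), PSAT1 (-1.18, 4.3e-08), PHGDH (-1.89, 0.0289) and DDIT4 (-1.33, 0.0217). Of these, the calls lost without single libraries were CHAC1 without IDE196 4 h replicate 3 (adjusted p 0.067) at 4 h, and ATF3 without any one of DMSO 24 h replicates 2, 3 and 4, FHT-1015 24 h replicate 1, IDE196 24 h replicate 1 (adjusted p 0.0548 to 0.101), PHGDH without any one of DMSO 24 h replicates 1, 3, 4 and 5, FHT-1015 24 h replicates 1 and 3, IDE196 24 h replicate 1 (adjusted p 0.0534 to 0.0996) and DDIT4 without any one of DMSO 24 h replicates 2 and 4, FHT-1015 24 h replicate 3, IDE196 24 h replicate 3 (adjusted p 0.05 to 0.177) at 24 h, where DMSO replicates 4 and 5 belong to IDE196.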

How the results depend on the processing

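Of the 32 drug effects called, 345 of 384 values with a library left out and 264 of 277 under the other settings stayed past the threshold in the same direction, and the others fell short of it. With the replicate number as a block, SESN2 in 92-1 at 24 h passed (-0.31, adjusted p = 0.0462) and PSAT1 in MP41 at 24 h did not (-0.38, 0.0501). Of 18 same-numbered pairs 3 had a correlation of deviations from the group means above 0.1 (range -0.26 to 0.42). Of the 18, 11 correlated best with their own number, and in MP41 every pair did so (0.033 to 0.099). These values do not settle whether the numbers pair the libraries, and the block was kept as an alternative only. No paired analysis was possible for IDE196 because its DMSO and drug libraries share no replicate numbers. Few reads per library limit ASNS in every set, PHGDH in 92-1, DDIT4 in the FHT-1015 experiment of 92-1 and DDIT3 in the IDE196 experiment. For DDIT3 and DDIT4 the count without strand also leaves out reads that the stranded sum holds. The cause of the changes below was not tested. With library size as the only scaling the log2 value changed sign to 0.023 for ATF3 in FHT-1015 in 92-1 at 4 h, 0.025 for PSAT1 in DMSO of MEL202 over time. Without the filter on low counts the log2 value changed sign to 0.0093 for ATF3 in FHT-1015 in 92-1 at 4 h, -0.0087 for ATF4 in DMSO, MP41 minus MEL202, -0.047 for DDIT3 in DMSO, MP41 minus MEL202. In limma-voom the log2 value changed sign to 0.14 for ATF3 in FHT-1015 in 92-1 at 4 h, -0.44 for ASNS in FHT-1015 in 92-1 at 24 h, 0.13 for DDIT3 in FHT-1015 in MEL202 at 4 h, 0.064 for ATF4 in DMSO of MEL202 over time, 0.025 for ASNS in DMSO of MEL202 over time, 0.041 for PHGDH in FHT-1015 in MP41 over time, -0.012 for ATF4 in DMSO of MP41 over time, 0.37 for ASNS in DMSO of MP41 over time, -0.14 for DDIT3 in IDE196 in 92-1 at 4 h, -0.12 for ASNS in IDE196 in 92-1 over time, -0.063 for DDIT3 in DMSO of the IDE196 set over time, 0.15 for ASNS in DMSO of the IDE196 set over time, -1.02 for ASNS in FHT-1015 against IDE196 at 4 h, 0.021 for PSAT1 in FHT-1015 against IDE196 at 4 h. In limma-voom the number of members called moved to 6 (8824 of 15913 genes) for FHT-1015 in MEL202 at 24 h, 1 (649 of 15543 genes) for FHT-1015 in MP41 at 4 h, 8 (9434 of 15543 genes) for FHT-1015 in MP41 at 24 h, 5 (7353 of 15543 genes) for FHT-1015 in MP41 over time, 4 (8302 of 15543 genes) for DMSO of MP41 over time, 8 (9601 of 18395 genes) for FHT-1015 among lines at 24 h. In the fit of 48 libraries the log2 value changed sign to 0.012 for ATF3 in FHT-1015 in 92-1 at 4 h, -0.051 for PHGDH in FHT-1015 in MP41 at 24 h, 0.044 for DDIT4 in DMSO of MP41 over time. In the fit of 48 libraries the number of members called moved to 3 (843 of 18871 genes) for FHT-1015 in MEL202 at 4 h, 5 (5733 of 18871 genes) for FHT-1015 in MEL202 at 24 h, 1 (94 of 18871 genes) for FHT-1015 in MP41 at 4 h, 2 (2895 of 18871 genes) for DMSO of MP41 over time, 1 (2143 of 18871 genes) for IDE196 in 92-1 over time, 0 (5 of 18871 genes) for DMSO of the IDE196 set over time, 3 (3023 of 18871 genes) for FHT-1015 against IDE196 at 24 h. With the stranded sum the log2 value changed sign to -0.041 for DDIT3 in FHT-1015 in 92-1 at 24 h, 0.027 for DDIT3 in DMSO of 92-1 over time, 0.041 for DDIT4 in DMSO of 92-1 over time, -0.12 for DDIT3 in IDE196 in 92-1 at 4 h. In DESeq2 the number of members called moved to 2 (375 of 15913 genes) for FHT-1015 in MEL202 at 4 h, 2 (1792 of 12797 genes) for DMSO of MP41 over time. In fits of 6 libraries the log2 value changed sign to -0.048 for PHGDH in FHT-1015 in MP41 at 24 h. In fits of 6 libraries the number of members called moved to 0 (0 of 14486 genes) for FHT-1015 in MEL202 at 4 h, 1 (346 of 14439 genes) for FHT-1015 in MP41 at 4 h. Leaving out 1 library at a time, values that changed sign ranged -0.17 to 0.075 for ATF3 in FHT-1015 in 92-1 at 4 h, -0.69 to 0.14 for PHGDH in FHT-1015 in 92-1 at 4 h, -0.65 to 0.35 for ASNS in FHT-1015 in 92-1 at 24 h, -0.079 to 0.051 for DDIT3 in DMSO of 92-1 over time, -0.14 to 0.44 for PHGDH in DMSO of 92-1 over time, -0.080 to 0.014 for SESN2 in DMSO of 92-1 over time, -0.18 to 0.33 for ATF4 in FHT-1015 in MEL202 at 4 h, -0.73 to 0.29 for DDIT3 in FHT-1015 in MEL202 at 4 h, -0.036 to 0.21 for PSAT1 in FHT-1015 in MEL202 at 4 h, -0.23 to 0.010 for ATF3 in FHT-1015 in MEL202 at 24 h, -0.14 to 0.30 for CHAC1 in FHT-1015 in MEL202 over time, -0.33 to 0.19 for ATF4 in DMSO of MEL202 over time, -0.57 to 0.28 for DDIT3 in DMSO of MEL202 over time, -0.064 to 0.28 for CHAC1 in DMSO of MEL202 over time, -0.32 to 0.055 for ASNS in DMSO of MEL202 over time, -0.15 to 0.10 for PSAT1 in DMSO of MEL202 over time, -0.076 to 0.30 for DDIT4 in DMSO of MEL202 over time, -0.086 to 0.026 for SESN2 in FHT-1015 in MP41 at 4 h, -0.16 to 0.16 for PHGDH in FHT-1015 in MP41 at 24 h, -0.28 to 0.049 for PHGDH in FHT-1015 in MP41 over time, -0.033 to 0.12 for ATF4 in DMSO of MP41 over time, -0.54 to 0.61 for ASNS in DMSO of MP41 over time, -0.084 to 0.31 for SESN2 in DMSO of MP41 over time, -0.32 to 0.23 for DDIT4 in DMSO of MP41 over time, -0.11 to 0.46 for DDIT3 in IDE196 in 92-1 at 4 h, -0.28 to 0.83 for ASNS in IDE196 in 92-1 at 4 h, -0.66 to 0.18 for DDIT3 in IDE196 in 92-1 at 24 h, -0.095 to 0.72 for DDIT3 in DMSO of the IDE196 set over time, -0.020 to 0.72 for CHAC1 in DMSO of the IDE196 set over time, -0.32 to 0.047 for SESN2 in DMSO of the IDE196 set over time, -0.098 to 0.50 for ASNS in DMSO, MP41 minus 92-1, -0.056 to 0.19 for ATF4 in DMSO, MP41 minus MEL202, -0.14 to 0.25 for DDIT3 in DMSO, MP41 minus MEL202, -0.51 to 0.067 for ASNS in DMSO, MP41 minus MEL202, -0.27 to 0.086 for SESN2 in FHT-1015 against IDE196 at 24 h, -0.30 to 0.015 for CHAC1 in DMSO sets of 92-1. Numbers of members called ranged 0 to 1 for FHT-1015 in MEL202 at 4 h, 0 to 1 for FHT-1015 in MP41 at 4 h, 3 to 5 for FHT-1015 in MP41 over time, 0 to 4 for DMSO of MP41 over time, 0 to 4 for IDE196 in 92-1 over time, 0 to 1 for DMSO of the IDE196 set over time, 2 to 5 for FHT-1015 against IDE196 at 24 h. The number of all genes called ranged over these settings 2089 to 6686 (4631) for FHT-1015 in 92-1 at 4 h, 4028 to 8488 (7133) for FHT-1015 in 92-1 over time, 14 to 368 (54) for DMSO of 92-1 over time, 0 to 843 (108) for FHT-1015 in MEL202 at 4 h, 2887 to 8824 (2984) for FHT-1015 in MEL202 at 24 h, 976 to 3458 (1097) for FHT-1015 in MEL202 over time, 0 to 4 (0) for DMSO of MEL202 over time, 34 to 649 (35) for FHT-1015 in MP41 at 4 h, 3352 to 9434 (5617) for FHT-1015 in MP41 at 24 h, 2863 to 7353 (2890) for FHT-1015 in MP41 over time, 330 to 8302 (395) for DMSO of MP41 over time, 895 to 2828 (2498) for IDE196 in 92-1 at 4 h, 2143 to 5267 (4733) for IDE196 in 92-1 over time, 5 to 498 (41) for DMSO of the IDE196 set over time, 248 to 1485 (253) for FHT-1015 among lines at 4 h, 2175 to 9601 (2212) for FHT-1015 among lines at 24 h, 1757 to 5335 (4169) for FHT-1015 against IDE196 at 4 h, 3023 to 6601 (5586) for FHT-1015 against IDE196 at 24 h, with the reported number in parentheses. Leaving out 1 library at a time, that number ranged 16 to 81 for DMSO of 92-1 over time, 28 to 137 for FHT-1015 in MEL202 at 4 h, 1810 to 4030 for FHT-1015 in MEL202 at 24 h, 515 to 1562 for FHT-1015 in MEL202 over time, 7 to 141 for FHT-1015 in MP41 at 4 h, 1946 to 5815 for FHT-1015 in MP41 over time, 14 to 6835 for DMSO of MP41 over time, 4 to 50 for DMSO of the IDE196 set over time, 144 to 368 for FHT-1015 among lines at 4 h, 1712 to 4000 for FHT-1015 among lines at 24 h.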
